A study of Mus musculus with 16 samples.

Results

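Gene expression in Hmgb1 knockout mouse embryonic fibroblasts (MEFs) synchronised in G1 was compared with that in the same kind of cells left cycling. The 6 arrays whose titles say KO G1 or KO cycling, 3 of each, were taken from the 16 arrays of the series, with all their probes. Both groups carry the same genotype, Hmgb1-/- (KO), so the lack of Hmgb1 is shared by both. Besides culture state, the groups differed in array slide and in Eif2s3y signal, as given below. The series description gives wild-type (Wt) and KO MEFs as littermate pairs from 3 Hmgb1+/- mothers mated to Hmgb1+/- males, grown to at most passage 3. On that basis the replicates were taken as biological ones, and whether each array came from its own embryo was not tested. The embryo's age and the way the cells were synchronised are not given in the sources used here. Total RNA was turned into biotinylated cRNA and hybridised to Illumina bead arrays, which report a mean intensity and a detection p-value for each probe.

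G1 is the gap between mitosis and DNA synthesis, in which a cell grows, reads mitogen and matrix cues and either passes into S phase or leaves the cycle. D cyclins with their kinases and cyclin E with Cdk2 inactivate the retinoblastoma family, which frees E2F factors to transcribe the genes of DNA replication. The genes of G2 and mitosis are held down in G1 by the DREAM repressor complex and are switched on later by B-Myb and FoxM1, through CCAAT boxes and the cell cycle homology region (CHR) of their promoters. A cycling MEF culture is a mixture of all phases, and in a comparison with synchronised cells, phase and the synchronisation treatment cannot be told apart. A bead array of a whole culture cannot tell fewer cells with an RNA from less of that RNA per cell.

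The targeted gene could not check the genotype labels. Its single probe read 4.79, 4.48 and 5.03 on cycling replicates 1, 2 and 3 and 4.81, 4.72 and 4.75 on G1 replicates 1, 2 and 3 (log2 normalised intensity), was detected on none of these 6 arrays, and was detected on only 1 of the 16 arrays of the series. Below, every set of 3 values follows that order of replicates. Of the 10 fibroblast markers 9 were on the array, and all 9 were detected. Their summed intensity was 52800, 54900 and 45600 on the cycling arrays and 85600, 59400 and 62200 on the G1 arrays, without overlap. By gene, 6 of the 9 were higher in G1 on average and 3 lower. Markers of other cell types were detected in part. On at least 1 of the 6 arrays 3 of 8 endothelial, 5 of 7 epithelial, 2 of 7 skeletal muscle, 3 of 6 neural and 2 of 7 fat markers on the array were detected. Flt1 of endothelium (11.03 to 11.39), Lpl and Pparg of fat, Des of muscle and Map2 of neurons were detected on all 6 arrays and Emcn on 5. Pecam1, Cdh5 and Kdr of endothelium, Krt5 and Krt14 of epithelium, Myod1 and Myog of skeletal muscle, Tubb3 and Gfap of neural cells and Adipoq and Fabp4 of fat were detected on none. The summed intensities of cycling and G1 arrays overlapped for the endothelial, epithelial, neural and fat lists, while for muscle they were 1210 to 2800 in cycling cells and 510 to 944 in G1. The part of these cells in the results was not tested. Macrophage markers were detected, 8 of the 8 on the array. Their summed intensity was 20700, 21600 and 8260 on the cycling arrays and 38500, 10800 and 10500 on the G1 arrays, so that the groups overlapped. Single genes of 2 other lists moved, Acta1 of skeletal muscle (below) and Nefm, a neurofilament subunit, undetected in cycling cells and at least 1.75-fold higher in G1.

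Array quality and layout touched every result. Mean intensity was 718.3, 776.1 and 742.4 on the cycling arrays and 393.8, 649.3 and 725.6 on the G1 arrays, where G1 replicate 1 was the dimmest and had 9970 of 25697 probes detected, against 10752 to 11488 on the other 5. G1 replicate 1 also stood apart from its group. It correlated with G1 replicates 2 and 3 at 0.881 and 0.883 over the 12078 probes tested below, while those correlated with each other at 0.991. It differed by more than 2-fold from their mean at 4514 probes, and they differed from each other by as much at 103. The cycling arrays and G1 replicate 3 lay on slide 1 and G1 replicates 1 and 2 on slide 2, so the slide was entered as a block in an alternative fit. Eif2s3y, a Y-linked gene, was detected on cycling replicates 1 and 2 and on G1 replicate 1 (11.30, 11.24 and 11.52) and lay at background on the other 3 (4.39 to 4.40). Eif2s3y signal was thus present in 2 of 3 cycling and 1 of 3 G1 arrays, and its part in the results was not tested.

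Of 12078 probes tested with limma, 1031 differed between G1 and cycling KO cells at a Benjamini-Hochberg adjusted p under 0.05, which is 8.54%. In G1, 625 were higher (5.17%) and 406 lower (3.36%). Of the probes called higher, 436 exceeded 2-fold, 102 exceeded 4-fold and 29 exceeded 8-fold, and of those called lower 221, 10 and 0 did. Taken by the brightest probe of each of 8428 genes, 459 genes (5.45%) were higher and 306 (3.63%) lower. These shares are the background for the list counts below that name no other fit. At an unadjusted p under 0.05, 1056 genes were higher and 1101 lower by limma. With the slide as a block 192 genes were called higher and 71 lower. Without G1 replicate 1, 2 or 3 there were 563, 419 and 447 higher and 419, 323 and 363 lower. Without cycling replicate 1, 2 or 3 there were 234, 242 and 328 higher and 116, 120 and 161 lower. The log2 difference had a median of -0.05 over all genes and a median standard error (SE) of 0.28 over all probes. With the arrays scaled to a common median instead of quantile normalised, the median probe moved to -0.24 and the share of calls that were higher fell from 60.6% to 46.6%. It was 73.7% with the slide as a block and 57.4% in the authors' value table. All 1031 called probes had the same sign on each of the 3 G1 arrays against the cycling mean, with a median size of 1.39 on G1 replicate 1, 1.0 on replicate 2 and 0.98 on replicate 3 (log2 difference). These probes were called on the same arrays, which favours 1 sign, and the share over all tested probes was not counted. Groups did not overlap at 1026 of the 1031 called probes and at 3495 of all tested (28.9%).

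**Figure D1:**
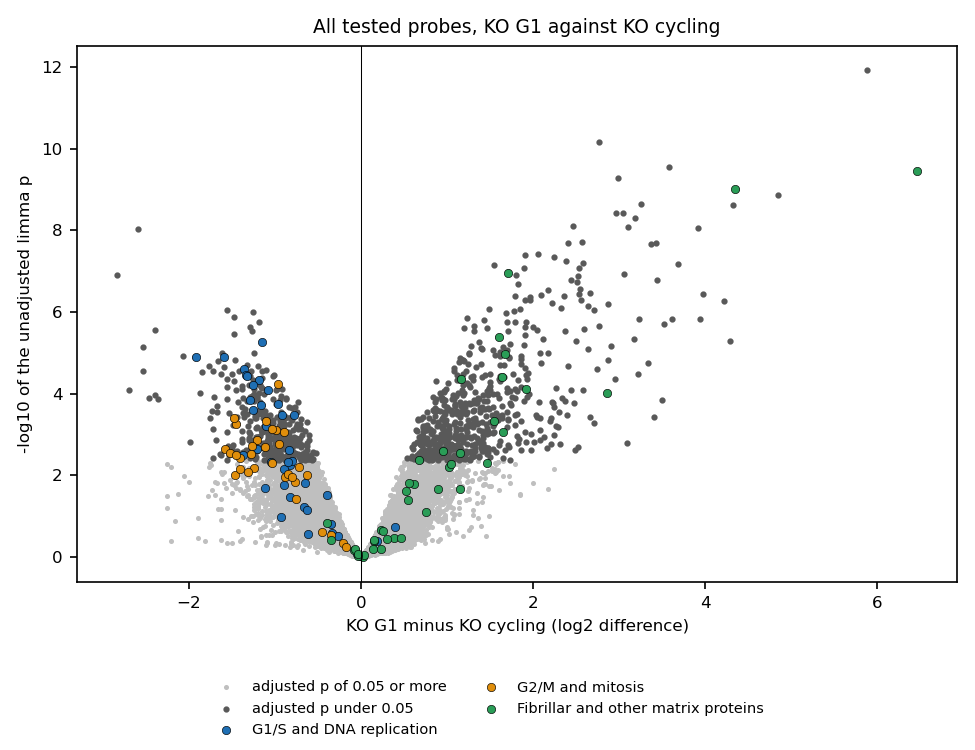
Each point is 1 of 12078 tested probes, with the KO G1 minus KO cycling difference (log2) on the x axis and -log10 of the unadjusted limma p on the y axis, where dark points have an adjusted p under 0.05. Coloured points are the brightest probes of 3 gene lists, with the replication (blue) and mitosis (orange) genes mostly left of 0, the matrix genes (green) mostly right of 0, and Lum farthest right at 6.46.

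The 12 genes that rose most in G1 were Lum, Fibcd1, Serpinb2, Mfap4, Itm2a, Igfbp3, Mest, Cxcl15, Edn2, Mmp3, Fgl2 and Sema7a. Lumican (Lum), a small leucine-rich proteoglycan that spaces collagen fibrils, read 4.95, 5.32 and 5.13 in cycling cells and 12.22, 11.34 and 11.22 in G1 (log2 normalised intensity). No cycling array detected it and every G1 array was far above, so the fold is a bound of at least 69.3 (log2 difference 6.46 ± 0.41 SE, limma adjusted p = 1.07e-06). Fibcd1, a membrane receptor for acetylated sugars such as chitin, was detected on all 6 arrays, at 5.39, 5.90 and 5.74 against 11.26, 11.81 and 11.59. Here both groups were tight and the gap was 58.8-fold (5.88 ± 0.24, limma adjusted p = 1.43e-08). Serpinb2, an inhibitor of plasminogen activators, rose from 5.47, 5.88 and 5.11, detected on 2 of the 3 arrays, to 10.73, 10.20 and 10.07 (4.84 ± 0.34, limma adjusted p = 2.33e-06). Mfap4, a protein of elastic microfibrils, went from 4.74, 5.66 and 5.72 to 9.65, 9.83 and 9.69 (4.35 ± 0.30, limma adjusted p = 2e-06), again with 2 cycling arrays above background. In each of these the lowest G1 array was at least as far above the highest cycling array as the cycling arrays were from each other.

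Itm2a, a transmembrane protein known from muscle and cartilage differentiation, was already well expressed in cycling cells at 8.25, 8.52 and 8.93 and reached 13.34, 12.60 and 12.76 in G1, 20.1-fold higher (4.33 ± 0.32, limma adjusted p = 3.22e-06). Igfbp3, which binds insulin-like growth factors outside the cell, was at background in cycling cells (4.84, 4.61 and 4.86) and at 10.15, 8.59 and 8.23 in G1, a rise of at least 11.4-fold that was steepest on G1 replicate 1. Mest, an imprinted hydrolase expressed from the paternal allele, rose from 7.07, 6.58 and 8.36 to 11.80, 10.96 and 11.16 (3.97 ± 0.44, limma adjusted p = 9.99e-05), where cycling replicate 3 was the high one of its group. Signalling ligands were among the 12. The chemokine Cxcl15 rose by 3.91 ± 0.32 on the log2 scale and was detected on 1 cycling array. The vasoactive peptide precursor Edn2 was detected on no cycling array and rose at least 6.95-fold, with G1 replicate 1 lowest at 7.21 beside 8.74 and 8.88. The GPI-anchored semaphorin Sema7a rose by 3.49 ± 0.67, the least precise of the 12, with cycling arrays spread from 6.41 to 8.34. Fgl2, a fibrinogen-like protein, rose by 3.52 ± 0.45 and was detected on 1 cycling array. The matrix protease Mmp3 is taken up with its relatives below. Among probes without a gene symbol, ILMN_2906728 rose by 4.28 ± 0.59 and ILMN_2681913 by 3.22 ± 0.53.

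All 12 of these genes kept an adjusted p under 0.05 when any 1 of the 6 arrays was left out and when the slide was a block. Against the cycling arrays on slide 1 alone, the single G1 array there, replicate 3, gave log2 differences of 3.19 (Fgl2) to 6.08 (Lum) for the 12. With the single array assumed to vary like the other groups, 10 of the 12 passed there, and Mest (3.83) and Sema7a (3.80) had adjusted p-values of 0.0838 and 0.232 by limma.

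**Figure D2:**
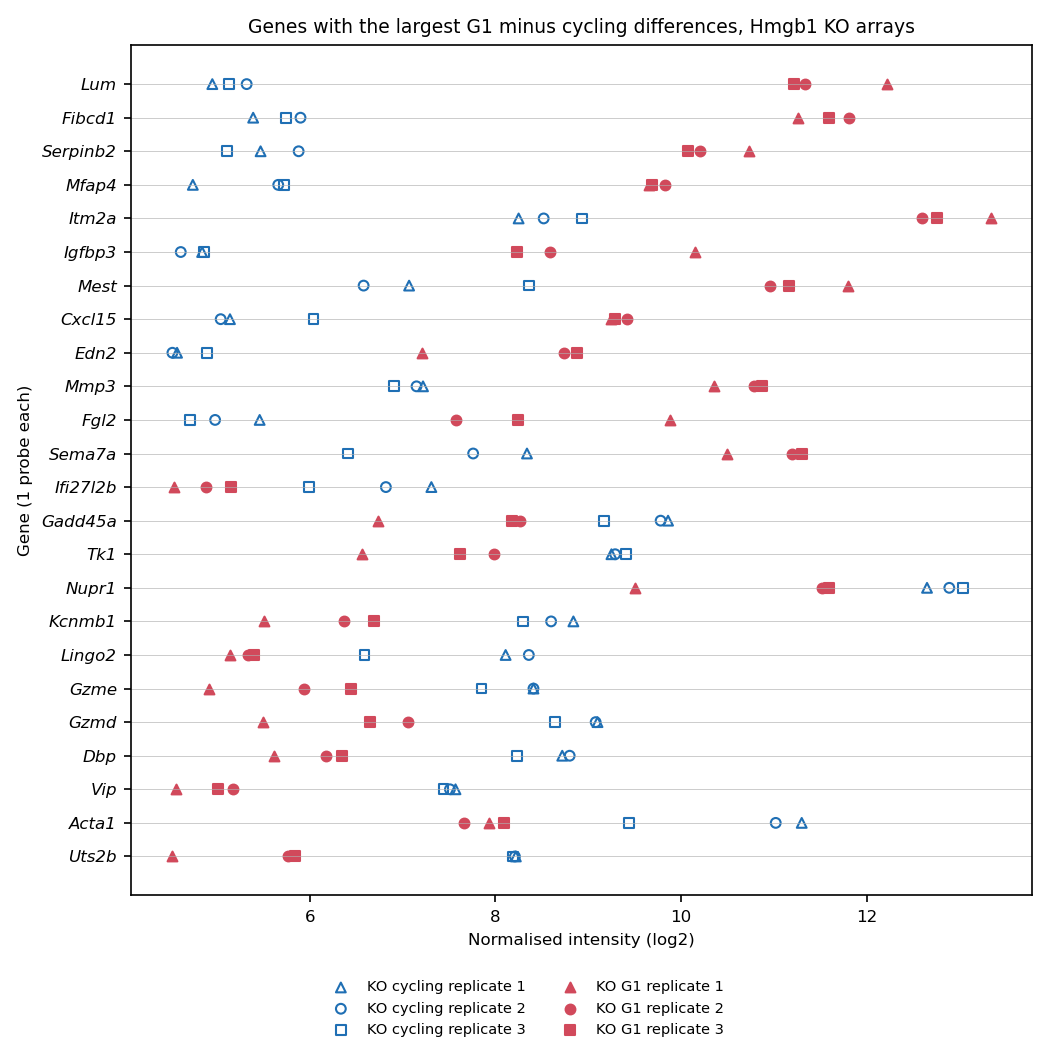
Log2 normalised intensity (x axis) of the 12 genes that rose most and the 12 that fell most in KO G1 cells (y axis, 1 probe each) on each of the 6 arrays, open blue symbols for cycling and filled red symbols for G1, with the replicate shown by shape. The groups are apart for every gene, as for Lum with 4.95 to 5.32 in cycling and 11.22 to 12.22 in G1, and G1 replicate 1 is the lowest G1 array for every gene that fell except Acta1.

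Falls were smaller and of mixed kind. Uts2b, the precursor of a urotensin-related peptide, read 8.22, 8.21 and 8.19 in cycling cells and 4.52, 5.77 and 5.84 in G1, where 2 arrays detected it (log2 difference -2.83 ± 0.29, limma adjusted p = 4.53e-05). Vip, the vasoactive intestinal peptide precursor, fell from 7.57, 7.51 and 7.44 to 4.56, 5.17 and 5.01, values at background, so that it was at least 3.54-fold lower (limma adjusted p = 7.18e-06). Both were tight in cycling cells and clear of the G1 arrays. Skeletal muscle actin, Acta1, was high on cycling replicates 1 and 2 (11.30 and 11.02), lower on replicate 3 (9.44), and at 7.93, 7.66 and 8.09 in G1 (-2.69 ± 0.49, limma adjusted p = 0.00421). Kcnmb1, the beta subunit of the smooth muscle BK channel, fell by 2.39 on the log2 scale with an SE of 0.31. Lingo2, a leucine-rich repeat membrane protein, was detected on no G1 array and was at least 4.02-fold lower. The stress-inducible chromatin protein Nupr1 went from 12.65, 12.89 and 13.04 to 9.50, 11.52 and 11.59 (-1.99 ± 0.50, limma adjusted p = 0.0264), with G1 replicate 1 far below the other 2. Its adjusted p was 0.222 with the slide as a block and reached 0.086 on leaving out 1 cycling array, and each of the 3 cycling arrays ended the call when left out.

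Gzmd and Gzme, neighbouring granzyme genes of chromosome 14 that are known from cytotoxic lymphocytes and placenta, fell by 2.54 and 2.46 on the log2 scale (SE 0.41 and 0.47). They are close paralogs, and how far their probes share signal was not tested. Gzme had an adjusted p of 0.0696 when the slide was a block. A dimmer Gzmd probe was detected on no G1 array and was at least 1.08-fold lower, a call lost without cycling replicate 1 or 2. Another Gzme probe fell by 2.36 (SE 0.45). Dbp, a clock-controlled transcription factor, fell from 8.72, 8.80 and 8.23 to 5.61, 6.17 and 6.35, with 2 of 3 G1 arrays above background (-2.54 ± 0.36, limma adjusted p = 0.00083). Of the 15 clock genes tested, Arntl, the activator that drives Dbp, was the other one called, and it rose (1.29 ± 0.33, limma adjusted p = 0.0298). That call was lost when the slide was a block (adjusted p = 0.241) and without any 1 of the cycling arrays. Gadd45a, a growth arrest and DNA damage gene, fell by 1.87 (SE 0.35) by one probe and by 1.75 (SE 0.38) by a brighter one. Ifi27l2b, an interferon-inducible mitochondrial protein, was detected on no G1 array and was at least 2.04-fold lower. Unnamed probes ILMN_2735350, at least 2.38-fold lower, and ILMN_1225528, which fell by 1.68 with an SE of 0.33, belong here as well. The latter lost its call when the slide was a block (adjusted p = 0.0977).

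Many genes of DNA replication fell. Of 52 listed genes of the G1/S transition and replication, 41 were tested and 20 were lower in G1 (48.8%, against 3.63% of all genes). None was called higher by limma, and at an unadjusted p under 0.05 the counts were 0 higher and 30 lower. The list's median was -0.92 on the log2 scale against -0.05 over all genes. Thymidine kinase, Tk1, which salvages thymidine for DNA synthesis, fell most, from 9.25, 9.29 and 9.41 to 6.56, 7.98 and 7.62 (-1.92 ± 0.29, limma adjusted p = 0.00123). Mcm5, a subunit of the replicative helicase, had the smallest spread, with 10.44, 10.42 and 10.50 in cycling cells and 9.34, 9.26 and 9.30 in G1 (-1.15 ± 0.16, limma adjusted p = 0.000695). All 3 G1 arrays, replicate 1 included, lay together about a unit below the cycling arrays. Further helicase subunits and loaders fell, Mcm2 (-1.36 ± 0.22), Mcm4 (-0.78 ± 0.17), Mcm10 (-0.96 ± 0.19) and Cdc6 (-1.34 ± 0.22). Mcm7 was detected on all cycling arrays and on no G1 array, at least 1.25-fold lower (limma adjusted p = 0.00288). Mcm3 and Mcm6 had differences of -0.66 and -0.83 with adjusted p-values of 0.222 and 0.164 by limma.

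The list reached from nucleotide supply to chromatin assembly. Ribonucleotide reductase Rrm2 fell by 1.24 (SE 0.33). Clamp loader subunits Rfc5, Rfc4 and Rfc2 fell by 1.29, 1.26 and 0.84, polymerase subunits Pole and Pola2 by 1.25 and 1.08, and the single-strand binding subunit Rpa1 by 0.92 (log2 differences). Both large subunits of the chromatin assembly factor that loads histones behind the fork fell, Chaf1b from 9.13, 9.16 and 9.14 to 6.92, 7.93 and 7.80 (-1.59 ± 0.24) and Chaf1a by 1.10 (SE 0.25). Uhrf1, which recruits the maintenance methyltransferase to new DNA, went from 11.47, 11.32 and 11.63 to 9.70, 10.39 and 10.36 (-1.33 ± 0.22, limma adjusted p = 0.00254), and the methyltransferase Dnmt1 itself fell by 0.69 (SE 0.16). Pcna, the sliding clamp, had a difference of -0.34 and an adjusted p of 0.492 by limma. The uracil glycosylase Ung and the loading factor Cdc45 fell by 1.21 and 1.16. E2f1, the activator of many of these genes and itself one of their number, fell from 10.15, 10.28 and 10 to 8.55, 8.96 and 8.92 (-1.33 ± 0.21, limma adjusted p = 0.00167), the 1 call among 10 E2F and pocket protein genes tested. Leaving out 1 array gave 15 to 25 replication genes lower, 15 without cycling replicate 1 or 2 and 20 without G1 replicate 1. With the slide as a block there were 9, beside 71 lower among all 8428 genes.

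Many mitotic genes fell as well. Of 55 listed genes of G2 and mitosis, 33 were tested, all 33 had a negative log2 difference, 16 were called lower (48.5%) and none higher by limma, with 28 lower and 0 higher at an unadjusted p under 0.05. The median was -1.03. Nusap1, a spindle microtubule protein, fell from 10.29, 10.06 and 10.48 to 9.24, 9.32 and 9.37 (-0.97 ± 0.17, limma adjusted p = 0.00348), with the G1 arrays close together and all below the cycling arrays. Kinetochore subunits Spc25 and Ndc80 fell by 1.45 (SE 0.32) and 1.10 (SE 0.24), and the mitotic kinesin Kif2c from 8.66, 9.02 and 9.03 to 7.22, 7.61 and 7.44 (-1.48 ± 0.32, limma adjusted p = 0.0113). Condensin subunits Ncaph and Ncapd2 fell by 1.03 and 0.99. Both factors that drive this programme fell, Mybl2 (B-Myb) by 1.45 (SE 0.41) and Foxm1 by 0.90 (SE 0.21).

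Cdk1, the kinase of mitotic entry, read 10.45, 10.62 and 10.59 in cycling cells and 7.83, 9.87 and 9.74 in G1 (-1.41 ± 0.40, limma adjusted p = 0.0464). G1 replicate 1 was 2 units lower than the other G1 arrays, and without it the difference was -0.75 with an adjusted p of 0.0274. Plk1, the polo kinase, had the same form at 10.88, 10.79 and 11 against 8.27, 9.88 and 9.79 (-1.58 ± 0.42), as had the centromeric histone Cenpa (-1.27 ± 0.33) and the checkpoint protein Mad2l1 (-1.21 ± 0.30). Birc5, Aurka and Cdc20, which are survivin, the Aurora A kinase and an activator of the anaphase-promoting complex, had differences of -1.46, -1.24 and -1.31 but adjusted p-values of 0.0811, 0.0632 and 0.0722 by limma. Top2a, the topoisomerase of chromosome condensation, had -0.88 with an adjusted p of 0.0853. Leaving out cycling replicate 1, 2 or 3 left 6, 3 and 3 mitotic genes called lower, and leaving out a G1 array left 14 to 18. With the slide as a block the count was 1, Nusap1 (limma adjusted p = 0.0451), while the median difference was -0.86. Among all 8428 genes that fit called 71 lower. Mki67 and Ccnb1 were not analysed here.

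**Figure D3:**
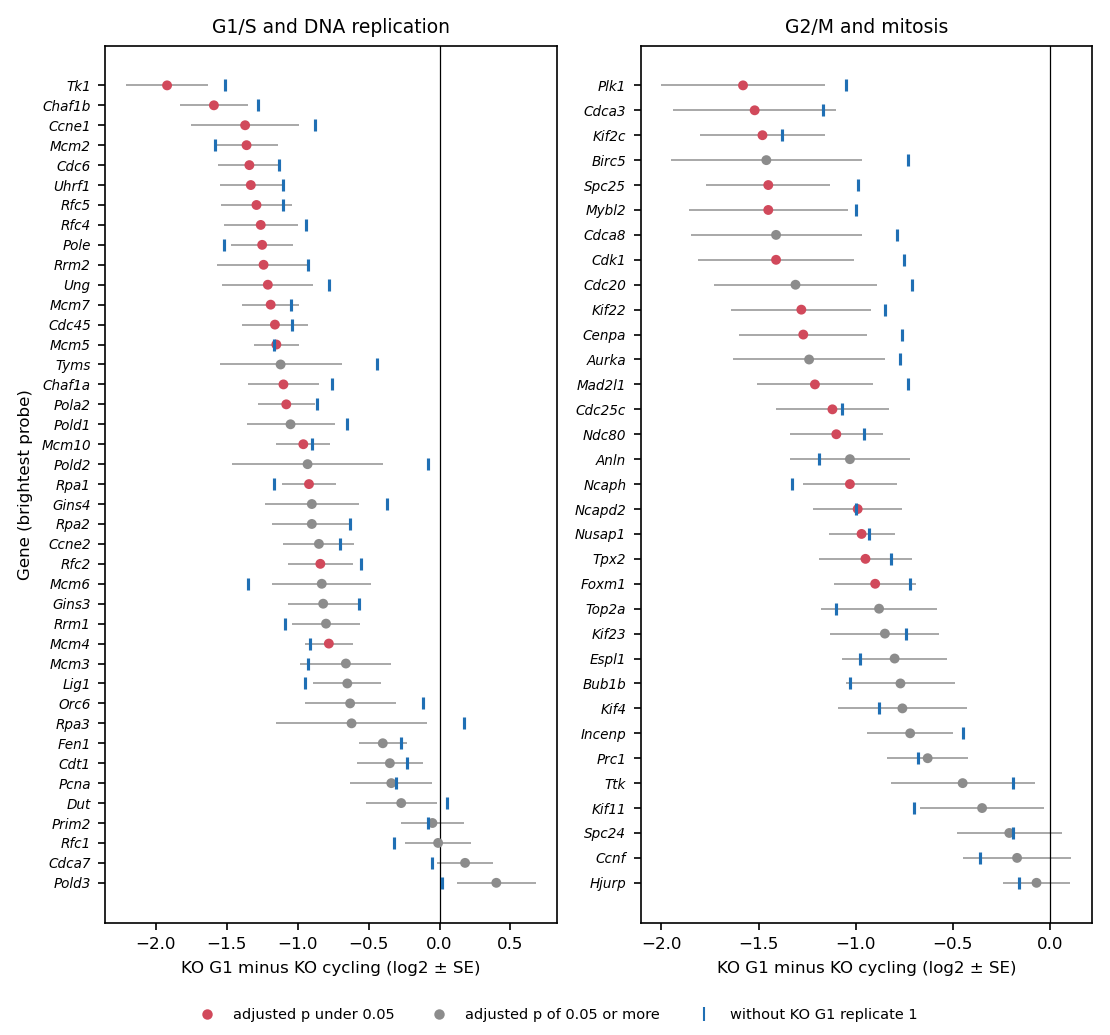
KO G1 minus KO cycling difference (x axis, log2, bars are ± SE) of the tested genes of the replication list (left, 41) and the mitosis list (right, 33), with red points for an adjusted p under 0.05. Blue marks give the difference without G1 replicate 1, which is nearer 0 for Cdk1 (-1.41 to -0.75) and Tk1 (-1.92 to -1.51) and farther from 0 for Ncaph (-1.03 to -1.33) and Mcm2 (-1.36 to -1.58).

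Promoter windows of these genes, from 250 bases before to 50 after the annotated start (RefSeq, GRCm38.p6, gene strand), were searched on both strands for CCAAT, for the CHR as TTTGAA or TTCGAA and for E2F sites as TTTCCCGC, TTTGGCGC or TTTCGCGC. TTTGGCGC and TTTCGCGC can overlap on opposite strands, and the other motifs shared no bases in the windows printed here. Windows were found for 28 of 33 tested mitotic and 35 of 41 tested replication genes. The CHR letters were in 24 of 29 windows of tested mitotic genes (82.8%) against 13.7% of the windows of all genes tested (19.2% of all 32851 windows), and CCAAT in 72.4% against 37.7% (37.4%). In the 13 windows of mitotic genes that were called lower these shares were less, 69.2% and 53.8%. In replication genes the E2F letters were in 12 of 41 windows (29.3%) against 3.27% of tested genes' windows (1.84% of all), and in 21.1% of the 19 windows of those called lower. Over all genes called lower the shares were 16.4% for CHR, 42.8% for CCAAT and 5.97% for E2F, and over those called higher 12.3%, 33.3% and 1.27%. Such matches describe letters, not occupied sites. The windows of Spc25, Ndc80 and Mcm5 are printed to show how the letters lie in genes that fell, picked after the matches were seen among the 4 members of each list with the smallest p. Those 8 windows were marked for CCAAT and CHR in mitotic genes and for E2F and CCAAT in replication genes. By that marking Nusap1, Chaf1b and Tk1 held no match, Kif2c held a CHR match and Mcm2 a CCAAT. The Mcm2 window also holds the CHR letters TTTGAA, which that marking left out. Capitals mark CCAAT and CHR letters in Spc25 (chr2:69206164-69206463, minus strand), the CHR letters, read as TTCAAA, near the start of Ndc80 (chr17:71526808-71527107, minus strand), and in Mcm5 (chr8:75109259-75109558, plus strand) CCAAT and a pair of overlapping E2F matches on opposite strands.
Spc25: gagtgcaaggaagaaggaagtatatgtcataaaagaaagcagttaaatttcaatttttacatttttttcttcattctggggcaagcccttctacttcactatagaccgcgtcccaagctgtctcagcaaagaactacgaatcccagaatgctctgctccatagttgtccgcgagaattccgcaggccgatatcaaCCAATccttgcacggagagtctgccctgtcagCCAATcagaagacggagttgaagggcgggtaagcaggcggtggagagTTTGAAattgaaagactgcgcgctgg
Ndc80: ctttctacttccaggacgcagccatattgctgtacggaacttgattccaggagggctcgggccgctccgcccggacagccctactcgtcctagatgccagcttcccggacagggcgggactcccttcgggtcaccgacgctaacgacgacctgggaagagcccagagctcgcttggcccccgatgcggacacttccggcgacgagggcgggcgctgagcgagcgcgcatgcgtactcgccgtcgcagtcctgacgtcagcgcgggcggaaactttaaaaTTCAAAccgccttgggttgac
Mcm5: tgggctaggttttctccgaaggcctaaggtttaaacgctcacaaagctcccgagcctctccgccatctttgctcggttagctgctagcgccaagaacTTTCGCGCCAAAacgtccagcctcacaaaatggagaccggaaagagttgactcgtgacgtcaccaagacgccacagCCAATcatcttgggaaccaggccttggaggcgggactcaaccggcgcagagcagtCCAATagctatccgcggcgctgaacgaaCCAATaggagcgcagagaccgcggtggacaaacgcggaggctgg

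Among regulators of the G1 decision, calls went both ways. Of 12 listed D cyclins and CDK inhibitors 10 were tested, 1 rose and 1 fell (10% each, against 5.45% and 3.63% of all genes). Cdkn1c (p57), an imprinted inhibitor, rose from 9.05, 8.75 and 9.29 to 12.05, 11.20 and 10.97 (2.37 ± 0.46, limma adjusted p = 0.0062), with an adjusted p of 0.0884 when the slide was a block. Cdkn2b (p15), an inhibitor of the cyclin D kinases, fell from 13.25, 13.01 and 13.19 to 11.34, 12.10 and 12.18 (-1.28 ± 0.21, limma adjusted p = 0.00218). The groups of both were apart. Ccnd1 and Ccnd2 had differences of -0.45 and -0.47 (adjusted p = 0.196 and 0.213 by limma), Cdkn1a (p21) of 0.09 (0.782) and Cdkn2a of -0.68 (0.476). Cdkn1b (p27) was detected on 1 of the 6 arrays and was not tested. Cyclin E1, Ccne1, fell from 7.03, 6.63 and 7.30 to 4.63, 6.03 and 6.17 (-1.37 ± 0.38, limma adjusted p = 0.0411), a call lost with the slide as a block (0.312), without any 1 cycling array and without G1 replicate 1. Among 21 p53 targets, the nuclease gene Aen was called higher (0.90 ± 0.24) and Gadd45a, by its brighter probe, lower. Both calls were lost when the slide was a block (adjusted p = 0.0872 and 0.0888 by limma) and without cycling replicate 1 or 2, and that of Aen also without G1 replicate 2 or 3.

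Some matrix genes rose. Of 50 listed fibrillar and other matrix proteins 41 were tested, 14 were higher (34.1%, against 5.45% of all genes) and none lower by limma, with 23 higher and 0 lower at an unadjusted p under 0.05, and the median was 0.61. Beside Lum and Mfap4, the small proteoglycan decorin (Dcn) rose from 12.23, 12.28 and 11.09 to 14.27, 13.49 and 13.60 (1.92 ± 0.35, limma adjusted p = 0.00418). Elastin (Eln) rose from 5.98, 5.84 and 7.97 to 8.75, 9.90 and 9.73 (2.86 ± 0.53, limma adjusted p = 0.00479), its lowest G1 array still above cycling replicate 3. The collagen VI chains rose together, Col6a2 from 8.62, 8.42 and 8.59 to 10.26, 10.39 and 10.10 (1.71 ± 0.17, limma adjusted p = 4.33e-05) and Col6a1 by 1.16 (SE 0.20). Fibrillin 2, Fbn2, was undetected in cycling cells and at least 1.58-fold higher (limma adjusted p = 0.000558). Aspn rose by 1.64 (SE 0.28), and its relatives Omd and Podn, both detected on no cycling array, were at least 1.77-fold and 1.59-fold higher. Col3a1 rose by 0.95 (SE 0.26), with an adjusted p of 0.135 when the slide was a block and 0.078 without G1 replicate 1. The Col3a1 call was also lost without G1 replicate 3 and without any 1 cycling array. The major collagen I chains had differences of 0.23 (Col1a1) and 0.02 (Col1a2), with adjusted p-values of 0.449 and 0.989 by limma. Leaving out 1 array left 10 to 14 of the matrix genes higher, and the slide block left 8.

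Of 31 proteases, inhibitors and cross-linkers tested, 4 were higher, none lower (7 and 1 at an unadjusted p under 0.05, limma), and the median was 0.09. Stromelysin 1, Mmp3, read 7.22, 7.15 and 6.91 in cycling cells and 10.36, 10.79 and 10.87 in G1 (3.58 ± 0.22, 11.9-fold, limma adjusted p = 1.07e-06), and 2 further Mmp3 probes gave 3.43 and 3.37. Stromelysin 2, Mmp10, and collagenase 3, Mmp13, rose by 2.66 (SE 0.57) and 2.63 (SE 0.38). The protease inhibitor Timp3 rose from 11.76, 11.70 and 11.65 to 14.46, 13.61 and 13.77 (2.24 ± 0.21, limma adjusted p = 2.34e-05). All 4 remained higher with the slide as a block. The gelatinase Mmp2 had 1.02 with an adjusted p of 0.0669, and Lox, the collagen cross-linker, 0.03 with 0.939.

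Of 24 ligands and binding proteins of the TGF-beta and IGF axis tested, 7 were higher and none lower (29.2%, 12 and 1 at an unadjusted p under 0.05, limma), with a median of 0.74. Tgfbi, a matrix protein named for its induction by TGF-beta, rose from 10.33, 10.25 and 9.85 to 12.30, 12.67 and 12.86 (2.46 ± 0.20, limma adjusted p = 7.04e-06). The activin subunit Inhba rose by 1.25 (SE 0.19) and the activin antagonist follistatin, Fst, by 1.61 (SE 0.24). Tgfb1, the ligand, rose from 8.27, 8.14 and 7.92 to 8.91, 8.92 and 9.06 (0.85 ± 0.18, limma adjusted p = 0.00895). Igfbp4 and the IGF2 clearance receptor Igf2r rose by 1.09 and 0.73. Leaving out 1 array gave 5 to 9 genes higher, and the slide block 4.

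Among Wnt and Notch genes 4 of 20 tested were higher and 1 lower. The secreted Wnt antagonist Sfrp1 rose from 5.49, 5.05 and 6.13 to 9.70, 8.11 and 8.53 (3.22 ± 0.40, limma adjusted p = 0.000273). The ligand Wnt2, by a probe not counted in this list, rose from 6.88, 6.63 and 7.31 to 10.07, 10.15 and 10.37. Its difference was 3.26 ± 0.24 (limma adjusted p = 3.22e-06). Receptors Notch1 and Notch3 rose by 1.02 and 1.08 while Notch4, best known from endothelium, fell by 1.24 (SE 0.22). Calls here ran from 1 higher without cycling replicate 1 to 5 higher without G1 replicate 1. Imprinted genes had 5 higher and 1 lower of 15 tested, Mest, Cdkn1c, Dlk1 (1.86 ± 0.50), Nnat (at least 1.31-fold) and Igf2r against Snrpn (-1.06 ± 0.26). Mest was the 1 of them that stayed called with the slide as a block, and without cycling replicate 1 or 2 there were 2 higher.

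Growth arrest genes described in quiescent fibroblasts had 7 higher and 1 lower of 23 tested (30.4% and 4.35%), with a median of 0.25. Lum and Dcn belong to this list too. Gas2, an actin-associated protein, rose from 5.20, 5.63 and 5.72 to 8.32, 6.95 and 6.86 (1.86 ± 0.33, limma adjusted p = 0.0039), Gas7 by 1.10 (SE 0.22) and the factor Foxo1 by 1.59 (SE 0.35). The PDGF receptor Pdgfra rose from 7.83, 7.49 and 7.65 to 11.45, 9.29 and 9.40 (2.39 ± 0.50, limma adjusted p = 0.0102). Its G1 replicate 1 was the high array, and the difference without it was 1.68. Nr2f1 fell by 1.53 (SE 0.32). Any 1 array could be left out with 6 or 7 of these higher, but with the slide as a block only Lum was called.

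Some serum-response and immediate early genes rose. Of 29 tested, 7 were higher (24.1%) and none lower by limma, with 13 and 0 at an unadjusted p under 0.05, and the median was 0.45. Arc, a cytoskeletal protein known from neurons, read 4.63, 4.72 and 5.25 at background in cycling cells and 9.51, 7.63 and 7.48 in G1, at least 6.63-fold higher. Egr2, a zinc finger factor, rose from 10.75, 10.89 and 11.60 to 12.44, 12.38 and 12.49 (1.36 ± 0.26, limma adjusted p = 0.00563). Dusp6, the ERK phosphatase that ERK induces, rose by 1.24 (SE 0.19), the mRNA decay factor Zfp36 by 1.08 (SE 0.21), the AP-1 subunit Fosl1 by 0.96 (SE 0.22), Maff by 1.09 (SE 0.26) and the EGF-receptor ligand Hbegf by 1.28 (SE 0.35). Fos and Myc had differences of 0.08 and 0.20 with adjusted p-values of 0.855 and 0.7 by limma. Counts of higher genes ran from 4 without cycling replicate 1, cycling replicate 2 or G1 replicate 2 to 10 without G1 replicate 1, and were 6 with the slide as a block.

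Inflammatory genes rose in part. Of 27 NF-kB targets and chemokines tested 6 were higher (22.2%) and 1 lower. Ccl8, a monocyte chemokine, rose from 5.23, 5.67 and 5.24 to 6.54, 7.75 and 7.71 (1.95 ± 0.36, limma adjusted p = 0.00479), and the NF-kB subunit Relb by 0.92 (SE 0.19). Ptges, the terminal prostaglandin E synthase, rose by 1.33 (SE 0.29), and Tnfaip3, the A20 deubiquitinase, by 0.90 (SE 0.24). The Tnfaip3 call was lost with the slide as a block (limma adjusted p = 0.0785) and without any 1 cycling array or G1 replicate 1 or 3. Vcam1, an adhesion molecule, fell from 10.63, 10.75 and 10.38 to 10.23, 8.88 and 8.80 (-1.28 ± 0.31, limma adjusted p = 0.0203), where G1 replicate 1 lay near the cycling arrays. The Vcam1 call was lost without cycling replicate 1 or 2 or G1 replicate 2 or 3. Interferon genes Rsad2 (1.46 ± 0.34), Gbp2 (1.47 ± 0.39) and Mx2 (at least 1.06-fold) were higher of 25 tested, and no call among them was left with the slide as a block. The summed macrophage markers given above were highest on G1 replicate 1 and lowest on cycling replicate 3, and their part in these lists was not tested. Without 1 array the NF-kB list had 3 to 7 higher, 3 without any 1 cycling array or G1 replicate 3, and 3 with the slide as a block.

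Contractile, metabolic and stress genes gave few calls. Of 22 actin and smooth muscle genes 2 were lower, myosin light chain kinase Mylk (-1.08 ± 0.26) and the enteric actin Actg2 (-1.29 ± 0.35), both lost with the slide as a block and on leaving out any 1 cycling array. Acta2, smooth muscle actin, had 0.19 with an adjusted p of 0.559. In glycolysis and hypoxia, 3 of 21 were higher, the growth factor Vegfa (1.17 ± 0.21), the glucose transporter Slc2a1 (0.79 ± 0.18) and Ndrg1 (1.85 ± 0.41), and the glycolytic enzyme Gapdh, often used as a reference, was lower (-0.68 ± 0.19, limma adjusted p = 0.0402). Only Vegfa kept its call with the slide as a block, and 1 gene was higher without cycling replicate 3. Sulfiredoxin, Srxn1, which repairs oxidised peroxiredoxins and is induced by Nrf2, rose from 9.46, 9.53 and 9.21 to 12.60, 12.32 and 12.23 (2.98 ± 0.19, limma adjusted p = 1.27e-06). Of the other 24 Nrf2 and antioxidant genes tested, Gpx1 (-1.22 ± 0.28) and Slc7a11 (-0.88 ± 0.22) were lower. Both calls were lost when the slide was a block (adjusted p = 0.108 and 0.0589 by limma) and without cycling replicate 1 or 2, that of Slc7a11 also without any 1 of cycling replicate 3 and G1 replicates 2 and 3, and Gpx1 was at -0.80 without G1 replicate 1. Slc7a11, the cystine transporter, is also an ATF4 target, and that list had 4 of 26 lower and a median of -0.52, with Sars, Mthfd2 and Shmt2 at -0.81, -0.79 and -0.84. By limma it had 9 lower without G1 replicate 1, 1 without cycling replicate 1 or 3, and 0 without cycling replicate 2 or with the slide as a block, beside 15 at an unadjusted p under 0.05 with all arrays.

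Histones, the respiratory chain, the ribosome and the proteasome shifted on 1 array. The median of 66 oxidative phosphorylation genes was -0.58 with all arrays and 0.04 without G1 replicate 1. Array by array, it lay -1.85, 0.06 and 0.07 from the cycling mean on G1 replicates 1, 2 and 3. For 53 cytosolic ribosomal proteins these distances were -1.39, 0.00 and -0.01, and for 36 core and linker histones -1.64, -0.08 and -0.10. Proteasome genes had a median of -0.43 with all arrays and -0.05 without that array. None of the respiratory, ribosomal or proteasome genes was called by limma (4 lower in each list and 0, 1 and 0 higher at an unadjusted p under 0.05), and of the histones H2ac4 alone was (-1.17 ± 0.31), a call lost when the slide was a block (adjusted p = 0.208) and without cycling replicate 1 or 2 or G1 replicate 3. The histone chaperone and heterochromatin list had its median at -0.41 with all arrays and -0.34 without G1 replicate 1. Its 5 lower genes of 22 were Chaf1b, Chaf1a, Dnmt1, the variant histone H2az1 (-1.44 ± 0.39) and the H3K27 methyltransferase Ezh2 (-0.83 ± 0.24). With the slide as a block 2 of the list were lower. Chaf1b was the 1 of these 5 among them (adjusted p = 0.0227 by limma). Chaf1a and Dnmt1 lost their calls there (0.142 and 0.159). The Chaf1a call was also lost without cycling replicate 2, and that of Dnmt1 without cycling replicate 1 or 2. Without cycling replicate 1, 2 or 3 the list had 2, 1 and 3 lower. H2az1 and Ezh2 lost their calls with the slide block (adjusted p = 0.303 and 0.228 by limma) and without any 1 cycling array, Ezh2 also without G1 replicate 1 or 3, and H2az1 was at -0.81 without G1 replicate 1. Of 6 HMG protein genes tested none was called, at a median of -0.39, and Hmgb2, the closest relative of Hmgb1 among them, had -1.09 with an adjusted p of 0.202 (-0.28 without G1 replicate 1, 1 lower at an unadjusted p under 0.05).

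**Figure D4:**
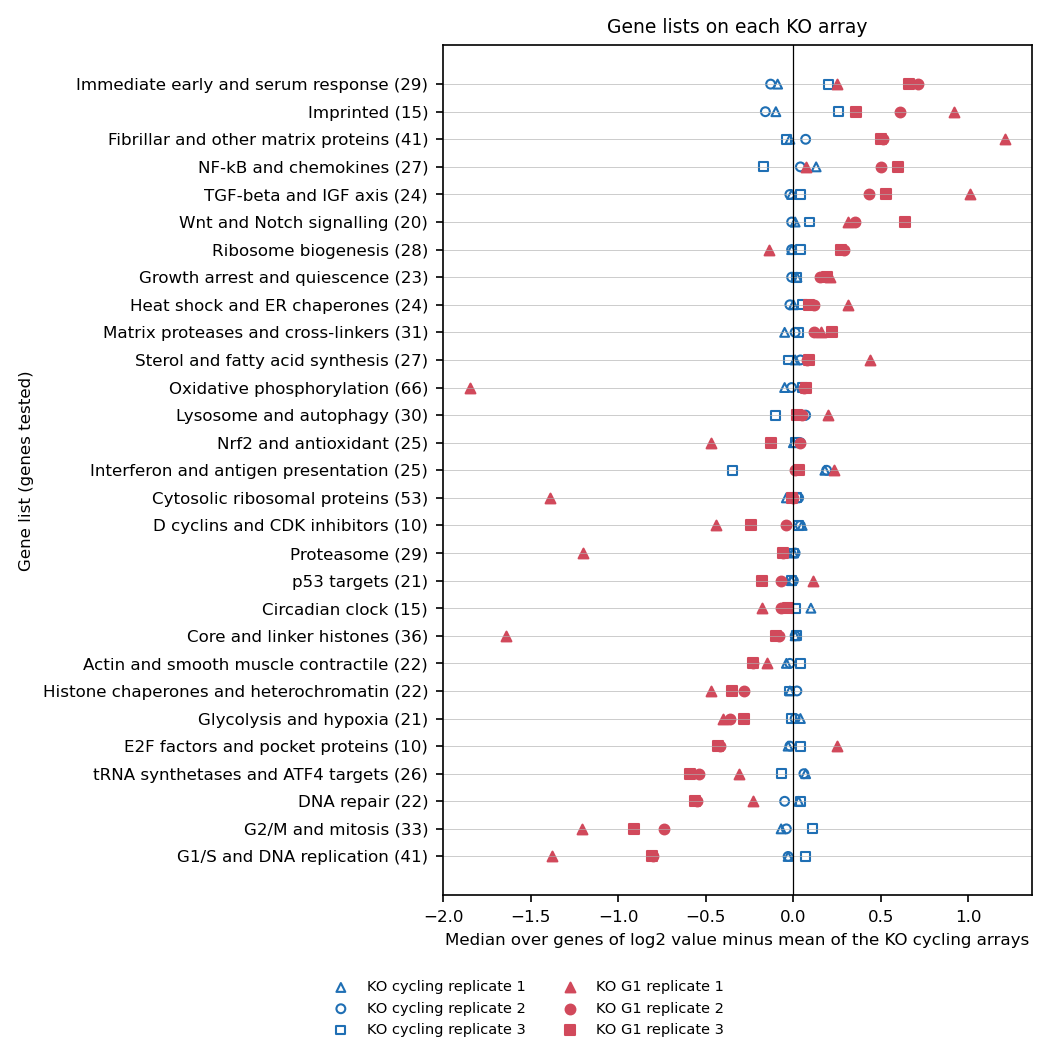
Median over each gene list (y axis, number of genes tested in brackets) of the log2 value minus the mean of the 3 KO cycling arrays (x axis), for each of the 6 KO arrays, with G1 in filled red and cycling in open blue. G1 replicate 1 (triangles) lies alone at -1.85 for oxidative phosphorylation and -1.64 for histones, whereas all 3 G1 arrays lie left of the cycling arrays for replication and mitosis and right of them for matrix proteins.

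Whether these changes depended on the lack of Hmgb1 was tested as the difference between the G1 minus cycling change in KO cells and that in Wt cells, measured on 6 further arrays. By limma 1 of 12078 probes passed (0.00828%), and 1140 had an unadjusted p under 0.05. ILMN_2757617, which has no symbol, read 11.56, 11.59 and 11.68 in cycling KO cells and 14.63, 14.25 and 14.25 in G1. In Wt cells it read 13.60, 13.54 and 13.63 and then 14.50, 14.35 and 14.47. Its KO arrays thus started about 2 units lower in cycling cells and overlapped the Wt arrays in G1, and the rise was 2.77 in KO and 0.85 in Wt (difference 1.92 ± 0.22, limma adjusted p = 0.00657). No probe passed with median scaling or with a replicate block that paired Wt and KO arrays by replicate number within each phase.

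For the named genes that came nearest, the difference did not pass the threshold. Uts2b fell by 2.83 in KO cells and had -0.43 in Wt cells, where it was at background throughout (adjusted p of the difference 0.237). Spock3, a testican proteoglycan, rose by 2.63 in KO cells from 6.27, 6.12 and 6.15 to 9.33, 8.28 and 8.84, and had 0.38 in Wt cells (difference 2.25 ± 0.43, limma adjusted p = 0.35). Among sterol genes, the demethylase Cyp51 rose by 0.77 in KO cells and fell by 0.80 in Wt cells (difference 1.58 ± 0.31, limma adjusted p = 0.35), and Insig1, which retains the SREBP activator in the endoplasmic reticulum, had 0.39 and -1.23 (1.62 ± 0.32, limma adjusted p = 0.35). Others of the list had 1 sign in both, Scd2 with -1.16 and -1.97 and Tm7sf2 with 0.82 and 1.02. Over the 27 tested genes of sterol and fatty acid synthesis the median was 0.07 in KO cells and -0.58 in Wt cells, and -0.18 in KO cells with median scaling. In KO cells 3 of them were higher, Cyp51, Sqle (0.85 ± 0.24) and the regulator Srebf2 (0.60 ± 0.16), and none was left when any 1 cycling array was omitted. Pi16, a peptidase inhibitor of fibroblasts, rose in both, by 1.89 in KO and 3.13 in Wt (difference -1.23 ± 0.26, limma adjusted p = 0.35). The leading rises were also present in Wt cells, at 5.07 for Lum, 6.37 for Fibcd1 and 4.04 for Mfap4, with adjusted p-values of the difference of 0.509, 0.568 and 0.756. The replication and mitosis lists had medians of -0.58 and -0.90 in Wt cells beside -0.92 and -1.03 in KO cells.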

How the data were processed

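The deposited non-normalized table was used, which per the file headers gives the mean intensity (AVG_Signal) and a detection p-value of each probe on each of 16 arrays. The submitters' processing notes name BeadStudio 3.0. The authors' value table, on a linear intensity scale, served as an alternative. No genome build is given for the probes in the sources used here. A platform table gave 1 symbol for 23978 of 25697 probes and none for 1719, and 23962 symbols were updated through Entrez identifiers.

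Intensities were background-corrected with normexp from the detection p-values, given an offset of 16 and quantile normalised to log2 values (neqc, limma 3.58.1, R 4.3.3, statmod 1.5.0). A probe entered the tests if all arrays of any 1 of the 6 groups had a detection p-value below 0.01, which left 12078 probes and 8428 genes. A limma model with a mean for each group was fitted to all 16 arrays, and the contrasts were KO G1 minus KO cycling and its difference from the Wt contrast. Tests were two-sided and adjusted by Benjamini-Hochberg over the 12078 probes, and a call is an adjusted p under 0.05. The script was tested on simulated data. Errors are limma's SE. Where no array of the dimmer group detected a probe, its fold is a bound ("at least") against each such array's lowest detected signal, or the probe's own value if that was higher. Lists use the brightest probe per gene. The number of arrays limits the precision.

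Named were the 12 genes with the largest rise and the 12 with the largest fall among calls detected on all 3 arrays of the higher group with groups apart, up to 2 unnamed probes each way, up to 5 members of each list with the smallest p, fixed cell cycle and sex-linked genes, and the 5 genes each way with the smallest p of the KO and Wt difference. Other list members and Wnt2 were named after their values were seen. The members and lists were chosen with earlier results of these data known, so no list is independent support. Slide was taken from the array labels.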

Additional observations from a re-analysis of the deposited data

Results flagged for a closer look

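A probe without a gene symbol, ILMN_2757617, changed differently in KO and in Wt cells by the test of the difference itself. It rose by 2.77 on the log2 scale from cycling to G1 in KO cells and by 0.85 in Wt cells, a difference of 1.92 ± 0.22 (limma adjusted p = 0.00657). Every G1 array was above every cycling array in both genotypes. The call was lost with median scaling and with the replicate block of Wt and KO pairs, each of which left 0 probes past the threshold by limma (811 and 1102 at an unadjusted p under 0.05).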

How the results depend on the processing

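The count of 1031 called probes depended on the fit. No called probe changed sign in any of the 21 alternatives that tested all of them. Several of these, such as the 6 or the 8 KO arrays alone, gave the same difference of means, so the sign could not change there. The probes had also been called on these same arrays. In all of the 21 alternatives 41 probes (39 higher, 2 lower, the latter Uts2b and Vip) were called, Lum, Fibcd1, Mmp3, Tgfbi and Sfrp1 included. Calls numbered 580 with median scaling (270 higher, 310 lower), 350 with the slide as a fixed block (258 and 92), 122 on slide 1 alone, where the single G1 array was assumed to vary like the other groups, 500 with the 8 KO arrays alone, 171 with the 6 KO arrays alone, and 3785 with array weights, which gave G1 replicate 1 a weight of 0.0431. Leaving out 1 KO array gave 477 (without cycling replicate 1) to 1337 (without G1 replicate 1), and leaving out G1 replicate 1 with Wt cycling replicate 3 gave 2185. In fits chosen after seeing the data, the 6 KO arrays less G1 replicate 1 gave 1891, and the slide block less that array 821. The replicate number was not taken as pairing KO G1 and cycling arrays, since deviations of same-numbered arrays correlated at 0.145, -0.134 and 0.194 and not every array correlated best with its own number. With the replicate block on the 6 KO arrays 55 probes were called, and 998 with it as a random block. For the KO and Wt difference the count of 1 became 0 with median scaling (811 at an unadjusted p under 0.05, limma), 0 with the replicate block of Wt and KO pairs (1102), 2 in the authors' value table, 1 to 2 on leaving out 1 array (2 without Wt cycling replicate 3, KO cycling replicate 1 or G1 replicate 1) and 5 without both arrays that stood apart. The cause of these shifts was not tested. Values at background limit the falls of dim genes to bounds.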

Other observations

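KO cells synchronised in S phase were on 2 arrays that stood in no contrast above. These arrays did share in the normalisation, the probe filter and the limma estimate of spread. The S-phase cells did not sit on 1 side of the G1 and cycling groups for the genes that moved most. Dbp read 8.69 and 8.67 on the S arrays, within its cycling range of 8.23 to 8.80, and Vip read 7.09 and 7.08, above every G1 array. Mfap4, at 9.51 and 9.34, and Itm2a, at 12.59 and 12.69, were near their G1 values. Mest lay at 8.13 and 8.27, within its cycling range of 6.58 to 8.36, and Fibcd1 at 8.69 and 8.67, between the groups. These are log2 normalised intensities of 2 arrays and were not tested.

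Expression of Eif2s3y and the summed macrophage markers ran together over the 6 KO arrays. The 3 arrays that detected Eif2s3y, cycling replicates 1 and 2 and G1 replicate 1, had macrophage sums of 20700, 21600 and 38500, and the other 3 had sums of 8260 to 10800. Cycling replicate 2 and G1 replicate 2 share a number and differ in Eif2s3y, at 11.24 and 4.39.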
